A study of Mus musculus with 10 samples.

Results

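The clustered protocadherins are the genes of 3 tandem arrays, called alpha, beta and gamma, and they were described here in the cerebellum of mice with and without a functional *Dscam* gene. Members were all genes whose symbol in the GENCODE M21 annotation begins with Pcdha, Pcdhb or Pcdhg. This rule found 58 of the 53447 genes listed for each library, 14 in the alpha, 22 in the beta and 22 in the gamma cluster. RNA was sequenced from whole cerebella of 5 WT mice, labelled Control, and 5 *Dscam* del17/del17 mice, labelled DscamKO, at P21, with 1 library per mouse. The strain is labelled BALB/c for all mice, and per the study's methods the del17 line had been crossed with BALB/cCrSlc mice. The del17 allele arose spontaneously and removes a stretch of exon 17, with loss of *Dscam* function in every cell of the mouse, and littermates served as controls. Animals of either sex entered both groups without being labelled by sex.

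Clustered protocadherins are cadherin-related adhesion proteins of the neuronal surface that bind the same isoform on the opposing membrane. In the alpha and gamma clusters each variable exon has its own promoter and is spliced to constant exons shared by the whole cluster, whereas the beta members are encoded by single large exons without a shared constant region. A neuron uses a small, largely random choice of the variable isoforms and the C-type isoforms more broadly, and this surface code serves dendritic self-avoidance, which in Purkinje cells depends on the gamma cluster. DSCAM is a separate adhesion protein that also acts in self-avoidance in the mouse retina, and RNA levels of the protocadherin arrays were here compared between WT mice and mice with mutated *Dscam*.

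Values are TPM, which are scaled for library size and transcript length. Levels of genes that share no exons can thus be set side by side, which does not hold for members with shared exons. The number of reads behind the values is unknown. *Dscam* itself averaged 7.72 ± 1.15 TPM over the WT libraries and 4.37 ± 0.979 TPM over the mutant ones (SD, n = 5 each), and the groups did not overlap. The whole gene is summed in this value, so it does not show the deletion as such. The listed TPM summed to between 684771 in WT library 5 and 838532 in WT library 1. WT library 5 also had the fewest genes at 0.5 TPM or more, 15623 against 17101 to 17763 in the other 9 libraries. As a check of the tissue label, markers of granule cells summed to between 4001 and 5024 TPM and those of Purkinje cells to between 8266 and 9841 TPM in all libraries. In whole tissue, fewer cells of a type and less RNA per cell cannot be told apart.

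The 58 members lay on chromosome 18 (GRCm38), all on the plus strand, with the alpha cluster at chr18:36930184-37187661, the beta cluster at chr18:37264938-37524479 and the gamma cluster at chr18:37661793-37841873. The alpha cluster comprised 12 variable members and the C-type members *Pcdhac1* and *Pcdhac2*. The gamma cluster comprised 12 members of the A type, 7 of the B type and the C-type members *Pcdhgc3*, *Pcdhgc4* and *Pcdhgc5*. The annotation gives the symbol *Pcdha11* to 2 genes, ENSMUSG00000007440 and ENSMUSG00000102206, which were kept apart.

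The clusters differed in how much of a member's annotated exonic sequence belongs to other members too. All 14 alpha members had 2860 bp of exon in common, and the shared part made up 38.0% to 54.9% of each member (median 53.4%). All 22 gamma members had 2116 bp in common, with a shared part of 27.8% to 66.8% (median 44.7%). In the beta cluster only *Pcdhb21* and *Pcdhb22* shared exonic sequence, 9.67% and 6.88% of their length. Reads from shared bases cannot be assigned to an isoform in a table of TPM per gene.

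The listed TPM was highest in the gamma cluster, followed by the alpha and the beta cluster. If reads in shared exons entered the value of each member, which the sources used here do not say, the means and sums of the alpha and gamma clusters hold the same reads up to 14 and 22 times, and those of the beta cluster hardly do. Averaged over its members, the gamma cluster reached 117 TPM per gene in WT and 118 TPM in mutant cerebella. The alpha cluster reached 21.9 TPM in WT against 27.4 TPM in the mutant, and the beta cluster 3.34 TPM in WT against 3.48 TPM in the mutant. Mean levels of single members over all 10 libraries ran from 78.7 to 172.6 TPM in the gamma, from 17.9 to 35.5 TPM in the alpha and from 0.051 to 9.02 TPM in the beta cluster, so the 3 ranges did not meet. Levels within the gamma and the alpha cluster spanned 2.19-fold and 1.98-fold, whereas those of the beta cluster ran from a gene listed at 0 in 8 libraries to one near 9 TPM.

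**Figure D1:**
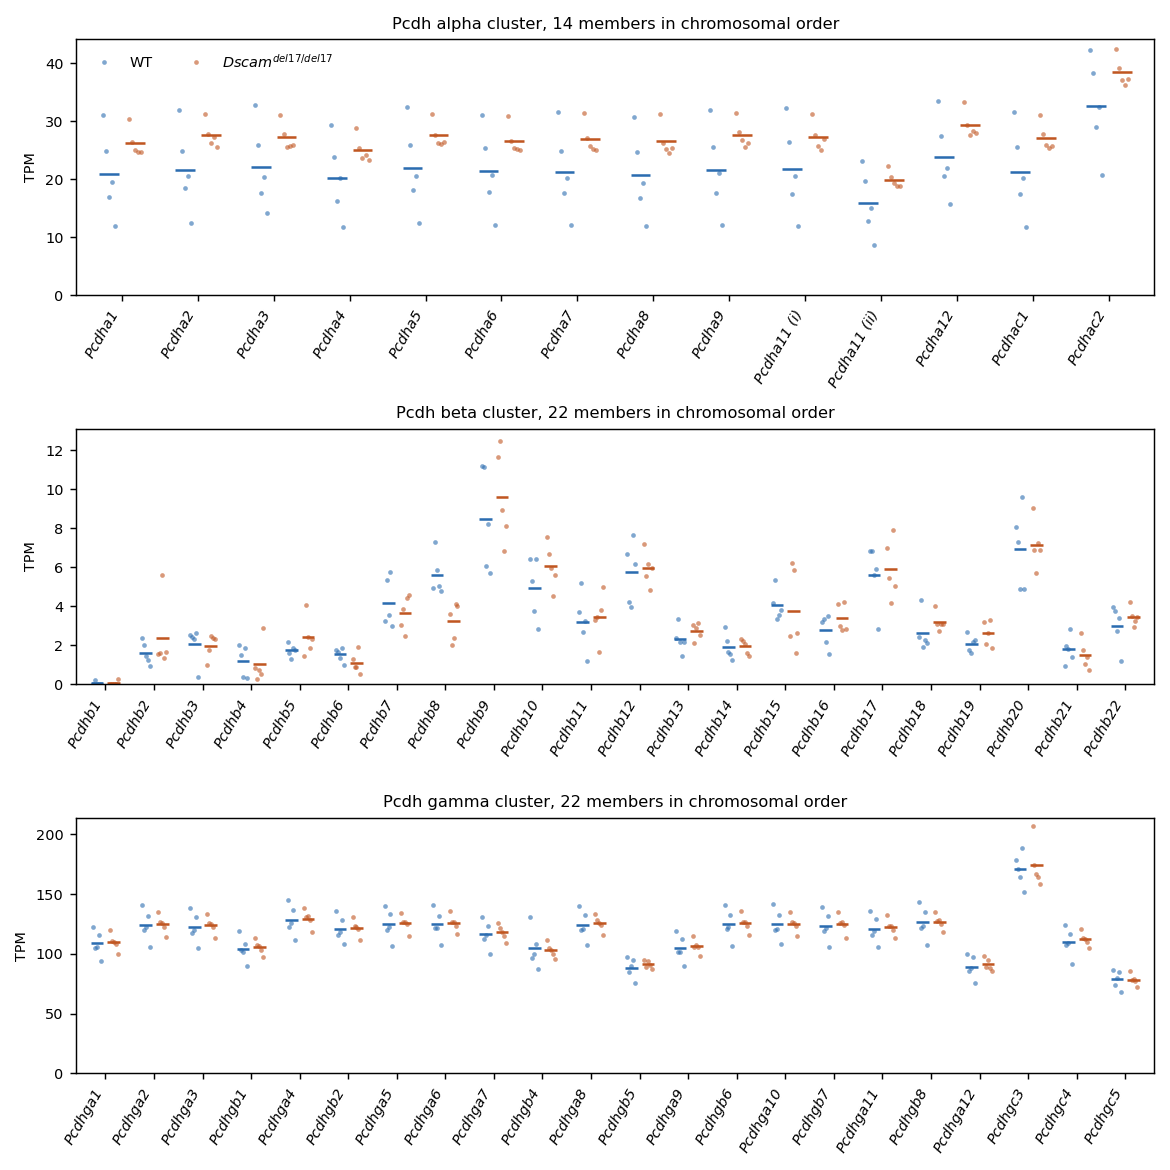
TPM (y axis, linear from 0) of each clustered protocadherin in 5 WT (blue) and 5 Dscam del17/del17 (orange) libraries, in chromosomal order along the x axis, with 1 point per library, replicate 1 to 5 from left to right, and a line at the group mean. (i) and (ii) mark the genes ENSMUSG00000007440 and ENSMUSG00000102206 that share the symbol Pcdha11. Gamma members lie between 78.7 and 172.6 TPM on average, alpha members between 17.9 and 35.5 TPM, and beta members between 0.051 and 9.02 TPM.

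Within the alpha and the gamma cluster, the members varied from library to library nearly as 1 unit. When TPM was multiplied by each member's exonic length and divided by the median of its cluster in the same library, 13 of the 14 alpha members stayed between 0.941 and 1.29 in every library. Of the 22 gamma members, 21 stayed between 0.972 and 1.15. The SD over the 10 libraries of a member's log2 ratio to its cluster's median was 0.029 (median over the alpha members) and 0.012 (gamma), against 0.37 in the beta cluster. A level that is the same once weighted by length, in genes that share 2116 or 2860 bp of exon, cannot be read as separate levels of 14 and 22 isoforms. The effective number of isoforms, the exponential of the Shannon entropy of their shares, was close to its maximum in every library, at 13.7 to 13.9 of 14 in the alpha and 21.7 to 21.8 of 22 in the gamma cluster.

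**Figure D2:**
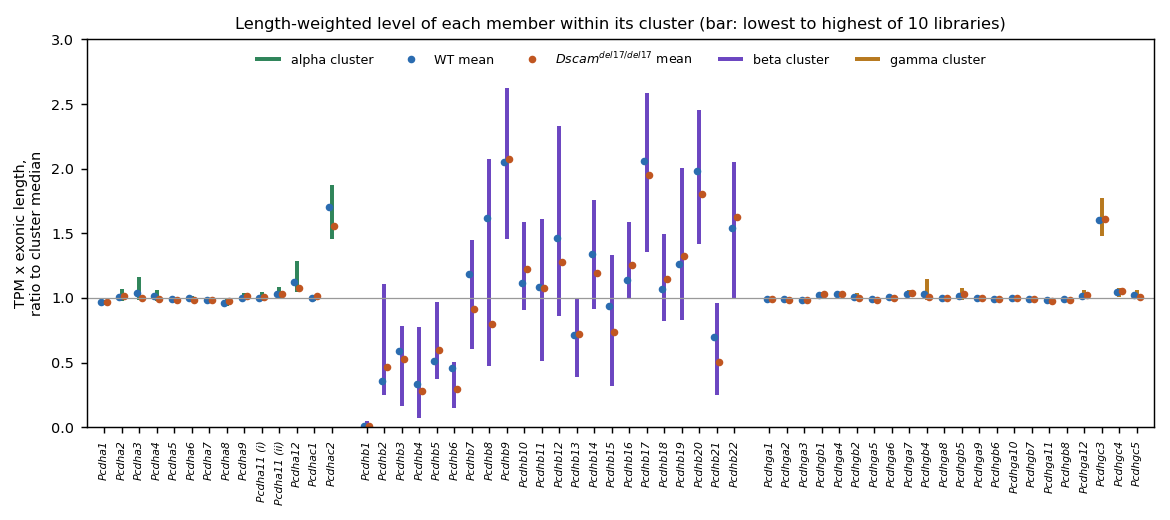
TPM multiplied by exonic length, as a ratio to the cluster's median in the same library (y axis), for each clustered protocadherin (x axis). Vertical bars run from the lowest to the highest of 10 libraries and dots give the WT (blue) and Dscam del17/del17 (orange) means. Alpha (green) and gamma (gold) members lie between 0.941 and 1.29 apart from Pcdhac2 and Pcdhgc3, with Pcdha12 the highest of the others by mean. Beta members (purple) are spread from 0 to 2.62.

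The members outside these ranges were the C-type members *Pcdhac2* and *Pcdhgc3*. *Pcdhac2* is the last member of the alpha array, and *Pcdhgc3* comes before *Pcdhgc4* and *Pcdhgc5* in the gamma array. Among the members within the ranges, *Pcdha12* had the highest mean ratio, 1.13 ± 0.102 (SD, n = 5) in WT and 1.08 ± 0.019 (n = 5) in the mutant. Its lowest ratio in any library was 1.04. Some other members also stayed above 1 in every library, with *Pcdhga7* next at a lowest ratio of 1.02. *Pcdhac2* was the highest alpha member in all 10 libraries, with 42.3, 38.4, 28.9, 32.4 and 20.7 TPM in WT libraries 1 to 5 and 42.4, 39.1, 37.1, 36.2 and 37.2 TPM in mutant libraries 1 to 5. Its length-weighted ratio to the alpha median was 1.70 ± 0.161 (SD, n = 5) in WT and 1.56 ± 0.039 (n = 5) in the mutant, with overlapping ranges of 1.46 to 1.87 and 1.49 to 1.59. *Pcdhac1*, the other alpha C-type, stayed with the variable members at a ratio of 0.998 ± 0.013 and 1.01 ± 0.007.

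*Pcdhgc3* was likewise the highest gamma member in all 10 libraries. It measured 179, 171, 164, 189 and 151 TPM in WT libraries 1 to 5 and 207, 174, 167, 164 and 158 TPM in mutant libraries 1 to 5. Its ratio to the gamma median was 1.60 ± 0.076 in WT and 1.61 ± 0.098 in the mutant (SD, n = 5 each). *Pcdhgc4*, the gamma isoform known to be needed for neuronal survival, and *Pcdhgc5* stayed near the cluster's median, with ratios of 1.04 ± 0.021 and 1.02 ± 0.029 in WT. The TPM of *Pcdhgc5* was the lowest of the gamma cluster, 78.9 ± 7.55 in WT and 78.6 ± 4.98 in the mutant, and its annotated exons were the longest, 7627 bp.

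The beta members, which hardly share exons, spanned a wide range of levels, but neighbours in the order of means often changed places between libraries. *Pcdhb9* was the highest by mean, with 11.2, 11.1, 6.06, 8.22 and 5.69 TPM in WT libraries 1 to 5 and 11.6, 12.5, 8.91, 6.83 and 8.12 TPM in mutant libraries 1 to 5. *Pcdhb20* followed with 6.94 ± 2.06 TPM in WT against 7.14 ± 1.20 TPM in the mutant, and *Pcdhb9* exceeded it in 8 of the 10 libraries. The next in order, *Pcdhb12*, *Pcdhb17* and *Pcdhb10*, had means of 5.84, 5.76 and 5.51 TPM over all libraries. *Pcdhb12* exceeded *Pcdhb17* in 6 and *Pcdhb17* exceeded *Pcdhb10* in 5 of the 10 libraries, so their order was not settled by these data.

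At the other end of the beta cluster, *Pcdhb1*, the first gene of the array, was listed at 0 in 8 libraries, at 0.247 TPM in WT library 2 and at 0.26 TPM in mutant library 5. It was the single member that did not pass the filter on low values. *Pcdhb4* (1.13 TPM on average) and *Pcdhb6* (1.32 TPM) were the lowest members that did. The effective number of isoforms was 16.7 to 18.1 of 22 in the beta cluster, with 17.7 ± 0.552 in WT and 17.5 ± 0.630 in mutant cerebella (SD, n = 5 each). *Pcdhb9* made up 11.4% ± 1.48 of the cluster's summed TPM in WT and 12.4% ± 2.50 in the mutant, against 4.55% if all 22 were equal.

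**Figure D3:**
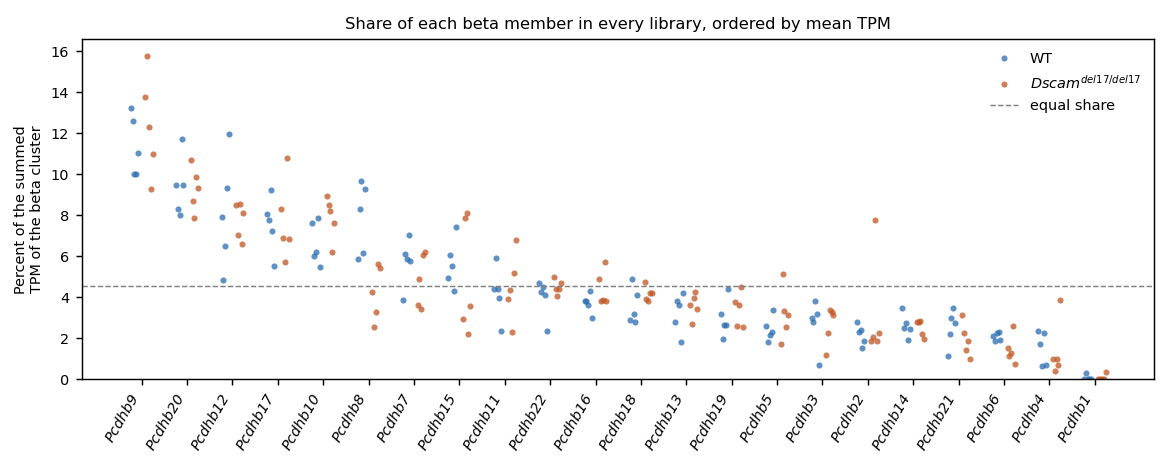
Percent of the beta cluster's summed TPM held by each beta member (y axis) in 5 WT (blue) and 5 Dscam del17/del17 (orange) libraries, ordered by mean TPM along the x axis, with 1 point per library and a dashed line at an equal share of 4.55%. Pcdhb9 leads, Pcdhb1 is at or near 0, and Pcdhb8 is the member whose shares in the 2 genotypes do not overlap.

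None of the 57 members tested passed the threshold between *Dscam* del17/del17 and WT cerebella after adjustment. The mutated gene *Dscam* did not pass it either (log2 fold change -0.82, adjusted p = 0.779 from limma). In limma, 0 of 57 had an adjusted p under 0.05, where 0.0% of the 17168 genes tested did. At an unadjusted p under 0.05 there was 1 member, *Pcdhb8*, which had the lower level in the mutant. This level was reached by 5.55% of all genes tested, with 3.26% of all genes lower and 2.29% higher in the mutant. Log2 fold changes, given as mutant minus WT on log2(TPM + 0.1), were above 0 for 49 of the 57, where 56.0% of all genes were. This count was 24 without WT library 5 or with array weights, 30 without mutant library 1, 31 with median-of-ratios scaling and 19 without WT libraries 3 and 5. Of all genes tested, the share above 0 was 44.0% without WT library 5 and 45.4% with array weights. It was 53.8% without mutant library 1, 51.7% with median-of-ratios scaling and 33.7% without WT libraries 3 and 5. The median of the 57 members, 0.05, was that of all genes tested, 0.05. Members of the alpha and of the gamma cluster share exons, so counts of them are not counts of independent genes.

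**Figure D4:**
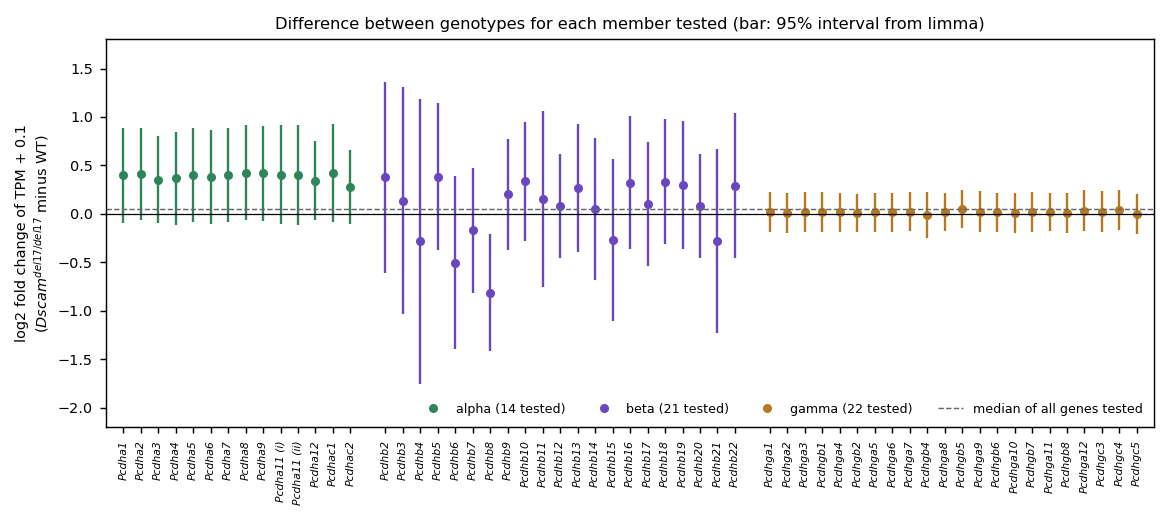
Log2 fold change of TPM + 0.1 (y axis, Dscam del17/del17 minus WT, n = 5 each) for the 57 clustered protocadherins tested, in chromosomal order, with 95% intervals from limma, a line at 0 and a dashed line at the median of all genes tested. Alpha members (green) lie together near 0.40 with intervals that include 0, gamma members (gold) lie near 0.02, and Pcdhb8 is the member whose interval excludes 0 before adjustment.

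In the alpha cluster all 14 members had log2 fold changes above 0, between 0.28 and 0.42 with a median of 0.40, and none passed the test. Of all genes tested, 56.0% were above 0, with a median of 0.05. All 14 alpha members stayed above 0 under the 23 other settings, where 33.7% to 60.4% of all genes were. The alpha members share exons and varied nearly as 1 unit, so 14 is not a count of independent genes. Their unadjusted p ran from 0.080 to 0.142, and the adjusted p was 0.779 for each (limma). *Pcdha2*, the member with the smallest p, measured 31.9, 24.8, 18.5, 20.6 and 12.4 TPM in WT libraries 1 to 5 and 31.3, 27.7, 26.2, 27.2 and 25.5 TPM in mutant libraries 1 to 5. WT library 1 stood above all mutant libraries, WT library 2 just below them, and WT libraries 3, 4 and 5 well below. Its log2 fold change was 0.41 (95% interval -0.06 to 0.89, adjusted p = 0.779 from limma, exact two-sided permutation p = 0.095). *Pcdhac2* had the smallest difference of the cluster, 0.28 (95% interval -0.11 to 0.66, adjusted p = 0.779 from limma).

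Summed over the cluster, the alpha members reached 446, 363, 254, 293 and 180 TPM in WT libraries 1 to 5 and 438, 387, 365, 362 and 364 TPM in mutant libraries 1 to 5. The groups overlapped, and WT libraries differed from each other by up to 2.48-fold where mutant libraries differed by up to 1.21-fold. The SD of log2 values was larger in WT for 14 of 14 alpha members, and also for 68.9% of all genes tested. Its median over the alpha members was 0.52 in WT and 0.12 in the mutant. Over all genes tested the median SD was 0.48 in WT and 0.32 in the mutant. The means were 307 ± 102 TPM in WT against 383 ± 32.2 TPM in the mutant (SD, n = 5 each), a log2 ratio of 0.32. Without WT library 5 the log2 ratio was 0.18, without WT libraries 3 and 5 it was 0.06, and without WT library 1 it was 0.49. In the fit without WT library 1, all 14 alpha members had an unadjusted p under 0.05, where 9.24% of all genes did, and none had an adjusted p under 0.05. This unadjusted level was also reached by 8 alpha members with median-of-ratios scaling and by 7 with quantile normalization, where 6.69% and 6.96% of all genes did.

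**Figure D5:**
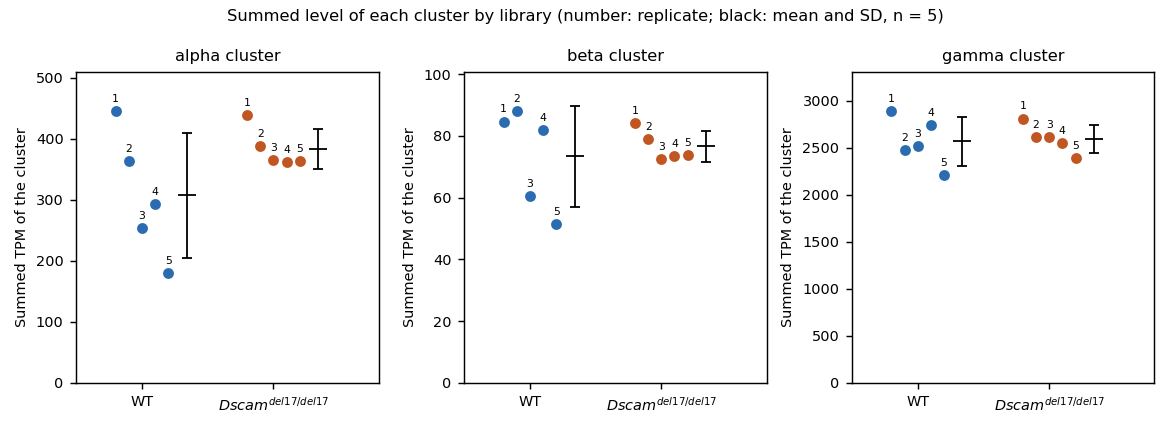
Summed TPM of the alpha, beta and gamma clusters (y axes from 0, on different scales) in WT (blue) and Dscam del17/del17 (orange) libraries, with 1 point per library, its replicate number above it, and mean and SD in black (n = 5). The alpha sums spread from 180 to 446 TPM in WT and from 362 to 438 TPM in the mutant, and WT library 5 is the lowest in all 3 clusters.

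Some library-wide measures had the order of the alpha sums within WT and others did not. All 14 alpha members were lowest of all 10 libraries in WT library 5 and highest among WT in WT library 1, whereas WT library 5 was the lowest of 10 for 40.9% of all genes tested. Mitochondrially encoded mRNAs summed to 44670, 38733, 23124, 32199 and 15206 TPM in WT libraries 1 to 5, in the same order as the alpha sums, and to between 34717 and 44973 TPM in the mutants. The number of genes at 0.5 TPM or more also had this order within WT. The listed TPM had another order, with sums of 838532, 795789, 757307, 807106 and 684771 in WT libraries 1 to 5. In the mutants it summed to between 775148 and 805869. The mean alpha level divided by the mean gamma level was 0.242 and 0.230 in WT libraries 1 and 2, and 0.159, 0.168 and 0.128 in WT libraries 3 to 5. In the mutant libraries it was between 0.220 and 0.245. This ratio contains the alpha level itself and is not a library-wide measure. The part of these library differences in the alpha values was not tested.

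The beta cluster held the member with the largest difference. *Pcdhb8* (ENSMUSG00000045876, chr18:37355121-37358604) measured 4.96, 7.31, 5.86, 5.06 and 4.78 TPM in WT libraries 1 to 5 and 3.59, 2.03, 2.37, 4.13 and 4.02 TPM in mutant libraries 1 to 5. Every mutant library was below every WT library, and it was the only member of the 57 tested whose groups did not overlap, where 1.22% of all genes tested were separated in either direction and 0.798% in this one. Its log2 fold change was -0.81 (95% interval -1.42 to -0.20, unadjusted p = 0.013 and adjusted p = 0.779 from limma), and the exact two-sided permutation p was 0.0079, the smallest that 5 against 5 libraries allow. Its share of the beta cluster was 7.85% ± 1.76 in WT and 4.23% ± 1.33 in the mutant (SD, n = 5 each). The difference thus failed the adjustment over all genes, under all 23 other settings as well, with log2 fold changes of -0.92 to -0.66 and adjusted p of 0.523 to 0.919.

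Of the other 20 beta members tested, 15 had log2 fold changes above 0 and 5 below, and each overlapped between the genotypes. The number above 0 was 10 with quantile normalization, with array weights or without WT library 5, and 5 without WT libraries 3 and 5. Of all genes tested, 49.3% were above 0 with quantile normalization and 45.4% with array weights. The share was 44.0% without WT library 5 and 33.7% without WT libraries 3 and 5. The median over the 21 members tested was 0.14, and it was -0.03 without WT library 5 and -0.17 without WT libraries 3 and 5. *Pcdhb6* had the next lowest value, with 1.77, 1.65, 1.37, 1.88 and 0.984 TPM in WT and 1.29, 0.902, 0.911, 1.89 and 0.543 TPM in mutant libraries 1 to 5. Mutant library 4 was above all WT libraries and the other 4 were below most of them, at a log2 fold change of -0.50 (95% interval -1.40 to 0.39, adjusted p = 0.787 from limma). *Pcdhb10* and *Pcdhb18* had log2 fold changes of 0.34 and 0.33, with adjusted p of 0.790 and 0.796 from limma.

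For the highest beta members the intervals included 0. The log2 fold change was 0.20 for *Pcdhb9* (95% interval -0.37 to 0.77), 0.08 for *Pcdhb20* (-0.46 to 0.61), 0.09 for *Pcdhb12* (-0.45 to 0.62) and 0.10 for *Pcdhb17* (-0.54 to 0.74). Summed over the cluster, the beta members reached 84.7, 88.1, 60.7, 82.1 and 51.5 TPM in WT and 84.3, 79.0, 72.4, 73.4 and 73.9 TPM in mutant libraries 1 to 5. These sums overlapped, with WT libraries 3 and 5 below all others, and their means gave a log2 ratio of 0.06. Beta genes are close paralogues, and how reads that match several of them were counted is not given in the sources used here.

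The gamma cluster had the smallest differences. Log2 fold changes of its 22 members ran from -0.01 to 0.05 with a median of 0.02, and 20 were above 0. This count fell to 0 with array weights, without WT library 5 or without WT libraries 3 and 5. It was 3 without mutant library 1, 2 with median-of-ratios scaling, 11 with rescaling to the same listed sum and 22 with quantile normalization. Of all genes tested, 56.0% were above 0 in the fit reported. This share was 45.4% with array weights, 44.0% without WT library 5 and 33.7% without WT libraries 3 and 5. It was 53.8% without mutant library 1, 51.7% with median-of-ratios scaling, 53.8% with rescaling and 49.3% with quantile normalization. The 22 members share exons and varied nearly as 1 unit, so these counts are not counts of independent genes. Adjusted p ran from 0.901 to 0.997 (limma). *Pcdhga4*, among the highest of the A type, measured 145, 123, 126, 137 and 112 TPM in WT and 138, 131, 132, 128 and 118 TPM in mutant libraries 1 to 5, with a log2 fold change of 0.02 (95% interval -0.18 to 0.22). *Pcdhgc3*, *Pcdhgc4* and *Pcdhgc5* had log2 fold changes of 0.03 (-0.19 to 0.24), 0.04 (-0.17 to 0.25) and 0.00 (-0.21 to 0.21).

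The gamma sums were 2892, 2479, 2516, 2740 and 2211 TPM in WT libraries 1 to 5 and 2810, 2612, 2610, 2546 and 2391 TPM in mutant libraries 1 to 5. The mutant values fell within the range of WT, and the means of 2567 ± 261 and 2594 ± 151 TPM (SD, n = 5 each) gave a log2 ratio of 0.01. All 22 gamma members were lowest of the 10 libraries in WT library 5, as the alpha members were, but the fold between the highest and lowest WT library was 1.31. The difference in log2 fold change between the alpha and the gamma cluster was not tested.

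Other annotated genes overlap the arrays. *Gm42416*, *Gm37013* and *Gm37388* are read-through genes that run from the alpha into the gamma cluster and share 2856, 313 and 429 bp of exon with members on the same strand. They were listed at 49.8 to 66.4, 77.4 to 121.9 and 55.7 to 88.8 TPM, above all alpha members. *Gm38182*, which shares 1530 bp of exon with gamma members, was listed at 112 to 143 TPM. Log2 fold changes were -0.04, -0.19, -0.16 and 0.02 in this order, and none passed the test. Whether reads of these genes and of the members were told apart is not given in the sources used here.

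Among the 10 protein-coding genes that flank the arrays, 5 had log2 fold changes above 0 and 5 below, where 56.0% of all genes tested were above 0. None of the 10 passed the adjusted threshold. An unadjusted p under 0.05 was reached by 5.55% of all genes tested and by 0 of these 10. *Hars*, upstream of the alpha cluster, had the smallest p, with 61.2 ± 9.43 TPM in WT against 66.8 ± 1.58 TPM in the mutant (adjusted p = 0.789 from limma). *Taf7*, which encodes a subunit of the general transcription factor TFIID and lies between the beta and the gamma cluster, was at 7.11 ± 1.39 TPM in WT against 7.08 ± 1.09 TPM in the mutant.

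Genes that regulate the choice of protocadherin promoters include *Ctcf* and the cohesin subunits, which bring promoters and enhancers of the arrays together, and the chromatin regulators *Smchd1*, *Setdb1* and *Dnmt3b*. All 21 such genes were tested, and 15 had log2 fold changes above 0 and 6 below, with a median of 0.14. Over all genes tested, 56.0% were above 0, with a median of 0.05. An unadjusted p under 0.05 was reached by 5.55% of all genes tested and by 0 of these 21. *Stag2*, a cohesin subunit, had the smallest p, with 14.1, 20.8, 7.56, 5.85 and 1.02 TPM in WT and 13.9, 18.7, 17.1, 25.7 and 13.7 TPM in mutant libraries 1 to 5. WT libraries 3 to 5 were below all mutants and WT libraries 1 and 2 were not. Its log2 fold change was 1.35 (adjusted p = 0.779 from limma) and 0.53 to 1.75 under the other settings. *Trim28*, a corepressor and the most abundant of the list, was at 124 ± 12.4 TPM in WT against 118 ± 10.6 TPM in the mutant.

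Of 24 intracellular partners of clustered protocadherins, such as the kinases *Ptk2* and *Ptk2b* and the WAVE complex, 18 had log2 fold changes above 0 and 6 below, with a median of 0.14. Over all genes tested, 56.0% were above 0, with a median of 0.05. None of the 24 partners passed the adjusted threshold. An unadjusted p under 0.05 was reached by 5.55% of all genes tested and by 1 of these 24. This was *Ctnnb1*, which encodes the adhesion and Wnt signalling protein beta-catenin, with 186, 173, 144, 194 and 148 TPM in WT and 202, 237, 222, 263 and 266 TPM in mutant libraries 1 to 5. Every mutant library was above every WT library, where 0.419% of all genes tested were separated in this direction. The log2 fold change was 0.50 (unadjusted p = 0.0011, adjusted p = 0.779 from limma, exact two-sided permutation p = 0.0079). *Prkca*, a kinase that phosphorylates the MARCKS protein, had a log2 fold change of 0.31 (adjusted p = 0.779 from limma).

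The non-clustered protocadherins are encoded outside the arrays, and 13 of the 14 listed were found and 11 tested. Of these, 7 had log2 fold changes above 0 and 4 below, with a median of 0.33. Over all genes tested, 56.0% were above 0, with a median of 0.05. An unadjusted p under 0.05 was reached by 5.55% of all genes tested and by 0 of these 11. *Pcdh1*, the most abundant, was at 36.6 ± 5.55 TPM in WT against 29.9 ± 8.98 TPM in the mutant. *Pcdh20* was at 4.99 ± 2.39 TPM in WT against 7.12 ± 2.09 TPM in the mutant. Of the 4 genes of the *Dscam* family and the sidekicks, which are also self-recognition molecules, 3 had log2 fold changes below 0. An unadjusted p under 0.05 with a lower level in the mutant was reached by 3.26% of all genes tested and by 2 of these 4. The 2 were *Dscam*, the mutated gene itself, with -0.82 and *Dscaml1* with -0.79 (adjusted p = 0.779 for each from limma). *Dscaml1* measured 6.57, 10.8, 13.0, 20.4 and 20.8 TPM in WT and 6.42, 7.16, 6.87, 7.58 and 10.5 TPM in mutant libraries 1 to 5, so that WT library 1 lay within the mutant range.

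Markers of other cell types and of neighbouring tissue varied beside these values, with 0 markers past the adjusted threshold in each list. Over all genes tested, 56.0% had log2 fold changes above 0, and an unadjusted p under 0.05 was reached by 5.55%, with 3.26% lower and 2.29% higher in the mutant. Of 14 granule cell markers, 12 had log2 fold changes below 0 and 4 of these had an unadjusted p under 0.05, and the summed level was 4111 to 5024 TPM in WT against 4001 to 4530 TPM in the mutant. Of 14 myelinating oligodendrocyte markers, 12 were above 0 and 4 had an unadjusted p under 0.05, with sums of 5935 to 8631 TPM in WT against 7568 to 8931 TPM in the mutant. Of 17 brainstem and midbrain markers 5 were tested, 4 of them with an unadjusted p under 0.05, 3 higher and 1 lower. The sum of this list was 15.1 to 37.1 TPM in WT against 21.4 to 34.5 TPM in the mutant, and its markers listed at 0 in all libraries included *Hoxb5*, *Hoxa5* and *Fev*. In the other lists an unadjusted p under 0.05 was reached by 3 of 12 molecular layer interneuron markers, all higher, by 1 of 13 Bergmann glia and astrocyte markers, which was lower, and by 0 of 16 Purkinje cell markers. The same held for 1 of 10 oligodendrocyte precursor, 1 of 10 microglia, 0 of 10 endothelial and pericyte and 1 of 12 choroid plexus and meningeal markers. The part of these cell types in the protocadherin values was not tested.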

How the data were processed

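Directional libraries were made from cerebellar RNA of 10 mice at P21, 5 of each genotype. The authors used Trimmomatic (version 0.36) for trimming, HISAT2 (version 2.2.0) for alignment to GRCm38 and StringTie (version 1.3.6) for quantification. The deposited values are the TPM per Ensembl gene that StringTie gave. The annotation release, the strand setting and the treatment of reads that match several genes are not given in the sources used here. TPM keeps no read number, so depth is unknown and no counting interval is given. The numbers of reads from htseq-count and the DESeq2 results of the study were not analysed here.

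Members were matched by identifier to GENCODE M21 on GRCm38, which lacked 191 of the 53447 identifiers. Members, gene lists and settings were chosen with earlier results of these data known. Genes that reached 0.5 TPM in 5 or more libraries were kept (17168 genes), and 0.1 was added before taking log2. The genotypes were compared by limma (version 3.58.1, in R version 4.3.3) with a variance trend and no covariates. Benjamini-Hochberg adjustment ran over every gene fitted, at a threshold of 0.05. The added 0.1 TPM draws fold changes of low genes toward 0. For single genes, all 252 divisions of the libraries into 5 and 5 gave an exact permutation p (two-sided). Cluster sums and shares are descriptions without a test, since members were chosen together and alpha and gamma members share exons. Errors are SDs over the 5 mice of a genotype.

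Genes were named by rule: in each cluster the 4 most abundant members and the 4 of lowest p, the 5 C-type members, and any member with an unadjusted p under 0.05, and in other lists, apart from cell type markers, the most abundant gene and the 2 of lowest p, with *Dscam*. *Pcdhb1*, *Pcdhb4*, *Pcdhb21*, *Pcdhb22*, *Gm42416* and the markers at 0 were named after their values were seen. The fit was tested on simulated data. The alternatives were other added values, filters and scalings, no trend, protein-coding genes only, array weights, *Xist* as a covariate, a replicate block and each library left out, with WT libraries 3 and 5 left out together chosen after seeing the data. *Xist* was above *Ddx3y* in 1 of 5 libraries of each genotype. The labels of both genotypes carry the numbers 1 to 5, but same-numbered libraries did not deviate together, with correlations of 0.008 to 0.098 over genes.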

Additional observations from a re-analysis of the deposited data

Results flagged for a closer look

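Among 86 groups of 5 libraries checked, 5 held a library that stood far from the other 4, where chance alone gives about 4.3. *Pcdha8* was at 31.3 TPM in mutant library 1 and at 26.2 TPM in the next highest mutant library. Mutant library 1 was the highest of the mutants for all 14 alpha members, for all 22 gamma members, for 7 of the 21 beta members tested and for 28.1% of all genes tested. *Pcdhb18* was at 4.31 TPM in WT library 2, against 2.45 TPM in the next, and at 4.01 TPM in mutant library 1, against 3.11 TPM in the next. *Pcdh20* was at 10.8 TPM in mutant library 2 and at 6.97 TPM in the next. *Dscaml1* was at 10.5 TPM in mutant library 5 and at 7.58 TPM in the next.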

How the results depend on the processing

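No member passed the adjusted threshold under any of the 23 alternatives. The median log2 fold change of the members was between -0.05 and 0.14 under all of them (-0.03 to 0.14 when 1 library was left out). *Pcdhb8* had an unadjusted p under 0.05 under each. With an unadjusted p under 0.05 there were 15 members without WT library 1 (14 of them alpha members), 9 with median-of-ratios scaling and 8 with quantile normalization, against 1 in the fit reported. The log2 ratio of the sums was 0.18 to 0.49 for the alpha, -0.04 to 0.14 for the beta and -0.03 to 0.06 for the gamma cluster when 1 library was left out, and 0.06, -0.15 and -0.06 without WT libraries 3 and 5. Depth is unknown, which limits what the low beta values can show.

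Same-numbered libraries share only a number, and the replicate block gave 0 calls among the members and 2 unadjusted p under 0.05 among them, with 1094 of all genes at that level against 953. Over all genes, 4 passed the adjusted threshold without the variance trend, 1 higher and 3 lower, and 1 without mutant library 4, none of them members.

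Of the 40 log2 fold changes followed, 17 changed sign under at least 1 alternative, and the cause was not tested. With array weights these were -0.091 for *Pcdhb17*, -0.10 for *Pcdhb20*, -0.018 for *Pcdhga12*, -0.030 for *Pcdhga4*, -0.031 for *Pcdhga6*, -0.023 for *Pcdhga7*, -0.00093 for *Pcdhgb5*, -0.043 for *Pcdhgb8*, -0.027 for *Pcdhgc3*, -0.017 for *Pcdhgc4* and -0.11 for *Taf7*. With median-of-ratios scaling these were -0.012 for *Gm38182*, -1.2e-05 for *Pcdhga12*, -0.020 for *Pcdhga4*, -0.019 for *Pcdhga6*, -0.011 for *Pcdhga7*, -0.026 for *Pcdhgb8*, -0.010 for *Pcdhgc3* and -0.031 for *Taf7*. With quantile normalization these were -0.018 for *Pcdhb12*, -0.0049 for *Pcdhb17*, -0.032 for *Pcdhb20*, 0.031 for *Pcdhgc5* and -0.10 for *Taf7*. With the listed TPM rescaled to the same sum these were -0.0029 for *Pcdhga4*, -0.0027 for *Pcdhga6*, -0.0089 for *Pcdhgb8* and -0.015 for *Taf7*. Without WT libraries 3 and 5 these were -0.011 for *Hars*, -0.0084 for *Pcdhb10*, -0.027 for *Pcdhb12*, -0.17 for *Pcdhb17*, -0.22 for *Pcdhb20*, -0.11 for *Pcdhb9*, -0.044 for *Pcdhga12*, -0.057 for *Pcdhga4*, -0.062 for *Pcdhga6*, -0.049 for *Pcdhga7*, -0.015 for *Pcdhgb5*, -0.074 for *Pcdhgb8*, -0.049 for *Pcdhgc3*, -0.045 for *Pcdhgc4* and -0.21 for *Taf7*. When 1 library was left out, the ranges of those that changed sign were -0.029 to 0.048 for *Gm38182*, -0.035 to 0.20 for *Pcdhb12*, -0.12 to 0.22 for *Pcdhb17*, -0.035 to 0.21 for *Pcdhb20*, -0.021 to 0.078 for *Pcdhga12*, -0.034 to 0.062 for *Pcdhga4*, -0.036 to 0.061 for *Pcdhga6*, -0.029 to 0.067 for *Pcdhga7*, -0.0068 to 0.083 for *Pcdhgb5*, -0.047 to 0.058 for *Pcdhgb8*, -0.039 to 0.062 for *Pcdhgc3*, -0.023 to 0.085 for *Pcdhgc4*, -0.052 to 0.032 for *Pcdhgc5* and -0.098 to 0.063 for *Taf7*.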
